A study of Mus musculus with 3 samples.

Results

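Box C/D small nucleolar RNAs are short nuclear RNAs that carry a C box near the 5′ end and a D box near the 3′ end. They were taken here as every gene whose symbol begins with Snord and a digit and that has a transcript of the snoRNA biotype. This gave 98 genes, with 97 different symbols because Snord80 has 2 gene entries, of 55450 genes present in both kinds of deposited table. Snord43, which is annotated as a miRNA, was the 1 gene left out by biotype. The annotated lengths of the 98 genes ran from 64 to 238 bases, with a median of 84.

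The 3 libraries belonged to 1 group. Bone-marrow-derived macrophages of C57BL/6J mice had been given 100 ng/ml Lipid A for 12 hours, washed and rested for 12 hours, and given 100 ng/ml Lipid A again for 50 minutes. Lipid A, the lipid anchor of bacterial lipopolysaccharide, is bound by Toll-like receptor 4 and its partner protein. Chromatin-fraction RNA was depleted of ribosomal RNA and sequenced, from 1 µg in replicate 1, 250 ng in replicate 2 and 500 ng in replicate 3, with a labelled size range of 250 to 400 whose unit is not given. The labels name the same donor for all libraries and record neither age nor sex. No source states that separate animals or cultures were used, and the spread between libraries may be technical. All cells had received both exposures, so each value below is a level and not a response. In this bulk RNA, fewer cells and less RNA per cell cannot be told apart.

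In the cell, each box C/D RNA is bound by fibrillarin, Nop56, Nop58 and Snu13. A stretch of the RNA upstream of a D box pairs with ribosomal RNA, and fibrillarin then adds a methyl group to a ribose in the paired target. A few members instead serve in cutting and folding the ribosomal RNA precursor. In mammals most members are released from introns of host genes after splicing, and many hosts make ribosomal proteins or are noncoding genes whose introns carry several snoRNAs. Nascent and retained transcripts collect in a chromatin fraction, so host introns and finished snoRNAs can both be present there.

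The sequences of the 5 members that had any count in the alignment-based tables are shown first, followed by Snord21, the most counted of the shorter members. They are the annotated transcripts of GENCODE M21 on mouse build mm10, written 5′ to 3′ on the annotated strand with T for U. Capitals mark the letters TGATGA of a C box where they occur in the first 20 bases, and CTGA of a D box in the last 20 bases. Snord17 lies at chr2:144265979-144266216 on the minus strand, Snord15b at chr7:99479563-99479707 and Snord15a at chr7:99482785-99482932 on the minus strand, Snord22 at chr19:8725866-8725991, Snord118 at chr11:69073427-69073561 and Snord21 at chr5:107904555-107904648 on the plus strand.
Snord17: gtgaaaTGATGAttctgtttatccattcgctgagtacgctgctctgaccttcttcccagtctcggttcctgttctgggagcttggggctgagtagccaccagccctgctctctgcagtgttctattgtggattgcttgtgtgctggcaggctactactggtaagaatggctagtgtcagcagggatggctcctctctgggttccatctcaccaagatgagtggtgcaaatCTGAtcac
Snord15b: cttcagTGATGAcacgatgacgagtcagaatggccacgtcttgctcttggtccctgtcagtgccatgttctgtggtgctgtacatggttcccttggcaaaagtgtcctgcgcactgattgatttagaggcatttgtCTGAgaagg
Snord15a: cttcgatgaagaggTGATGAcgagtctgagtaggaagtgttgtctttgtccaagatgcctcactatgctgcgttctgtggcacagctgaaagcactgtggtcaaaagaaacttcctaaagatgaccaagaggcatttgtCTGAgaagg
Snord22: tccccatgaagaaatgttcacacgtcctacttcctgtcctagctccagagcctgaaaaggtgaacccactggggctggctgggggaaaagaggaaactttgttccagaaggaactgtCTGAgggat
Snord118: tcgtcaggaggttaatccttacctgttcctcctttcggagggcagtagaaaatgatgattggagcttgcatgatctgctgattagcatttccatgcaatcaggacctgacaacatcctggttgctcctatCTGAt
Snord21: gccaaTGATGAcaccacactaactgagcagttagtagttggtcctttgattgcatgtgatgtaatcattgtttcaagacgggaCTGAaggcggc
Snord22 and Snord118 lack the exact C box letters in this window. These letters were searched on both strands, and the 2 motifs do not overlap each other.

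The label was checked against those letters. TGATGA stood in the first 20 bases of 70 of the 98 members (71.4%) and CTGA in the last 20 bases of 96 (98.0%), and 68 members (69.4%) had both. On the opposite strand the counts were 0, 4 and 0. Of 42 box H/ACA genes (symbols beginning with Snora), the other large class of small nucleolar RNA, which guides pseudouridylation, 0 held TGATGA, 5 (11.9%) held CTGA and 0 held both in the same windows. The cell type was checked as well: 8 of 8 macrophage markers, among them Adgre1 and Csf1r, had a length-corrected abundance of at least 1 TPM (transcripts out of 1000000) in every library, against 20.2% of all genes, and their summed TPM ran from 1122 to 1380. Of 10 markers of neutrophils, lymphocytes, dendritic, stromal and red blood cells, 0 reached that level. Their summed TPM ran from 0.46 to 0.89, with Cd3e and Hbb-bs at 0. However, 3 of the 10 had at least 10 read-based counts in every library. These were Col1a1 (13.0, 266 and 227 in replicates 1, 2 and 3), Flt3 (19.2, 97.3 and 64.8) and Siglech (22.3, 72.3 and 49.4). Cd3e had 4, 2 and 1 read-based counts.

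Each library was quantified by 2 routes. The alignment-based tables give expected counts, an effective length and TPM per gene, and the read-based tables give estimated counts, an effective length and TPM per transcript, summed here per gene. Effective length is the number of positions at which a fragment of the library could start on the transcript. TPM divides the counts by it, so a gene with an effective length near 0 gets a high TPM from few counts. The totals were 13897176, 19597343 and 19348626 expected counts and 20743071, 34961536 and 32857771 read-based counts in replicates 1, 2 and 3. A count of 0 allows up to 3 counts, or 0.216, 0.153 and 0.155 CPM (counts out of 1000000) in the alignment-based and 0.145, 0.0858 and 0.0913 in the read-based tables. These floors and the 95% Wilson intervals below cover counting error only, because reads are not independent molecules.

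In the alignment-based tables nearly all members were listed at 0. Any count was present for 5 of 98 members, against 43.2% of all genes, and these 5 were the longest: Snord17 (238 bases), Snord15a (148), Snord15b (145), Snord118 (135) and Snord22 (126). At least 10 counts in every library, here called counted, were reached by 4 of the 98, against 23.4% of all genes. The other 93 members were at most 111 bases long, and each had an effective length of 0 and a count of 0 in all 3 libraries. The same held for short genes of any class: of 3899 genes of any kind up to 111 bases, all had an effective length of 0 and 5 had any expected count, whereas 1359 had at least 1 read-based count in some library. Of 1267 genes between 126 and 150 bases, 152 had an expected count. The shortest gene with an effective length above 0 was 120 bases in replicate 1 and 128 in replicates 2 and 3. A 0 for a short member in these tables therefore cannot be read as absence of the RNA.

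**Figure D1:**
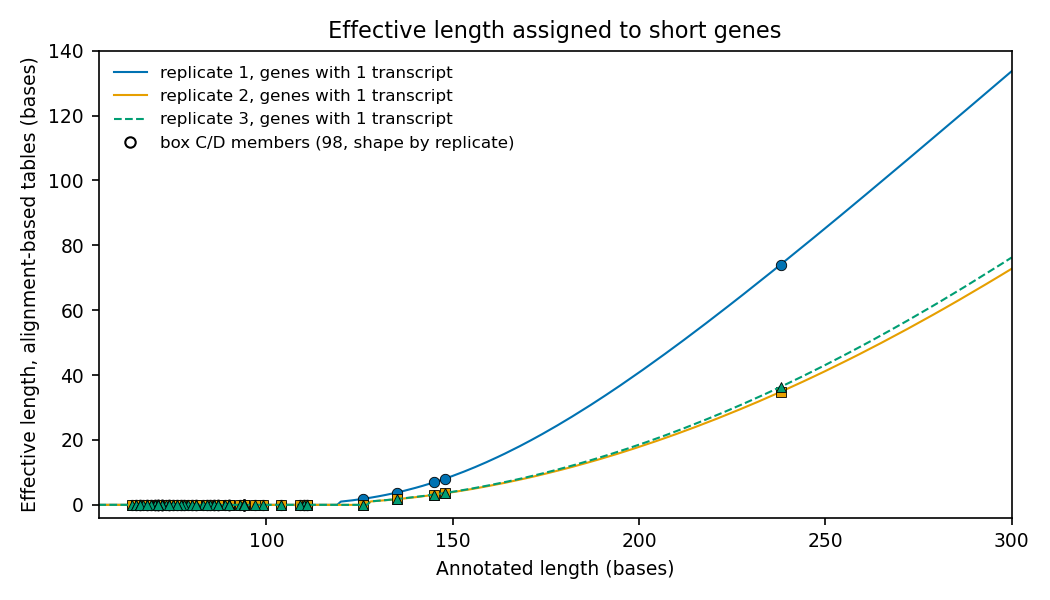
Effective length in the alignment-based tables (vertical axis, bases) against annotated length (horizontal axis, bases), for genes with 1 transcript as lines and for the 98 members as points, by library. Members up to 111 bases lie at 0 in every library, and at 238 bases the values of Snord17 are 74.1, 34.9 and 36.4 bases for replicates 1, 2 and 3.

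The read-based tables held counts for more of the members. Of the 98, 64 had a count above 0 in some library, against 61.5% of all genes, and 33 were counted, against 37.8% of all genes. That share of members was thus near the background of genes of all lengths. Of the 93 members up to 111 bases, 57 had at least 1 read-based count in some library, against 1359 of all 3899 genes up to that length. All 4 members counted in the alignment-based tables were among the 33. Of the other 29, 28 had under 1 expected count in every library, and the exception was Snord118. This combination, counted by reads but under 1 expected count, held for 28 of all 98 members, against 6.67% of all genes. All 28 are at most 111 bases long, and of 3899 genes up to that length 5 had any expected count. The 6.67% covers genes of all lengths, and the share among short genes was not computed. No member was counted in the alignment-based tables and not in the read-based ones. The median read-based effective length of the members was 15.3, 16.8 and 17.1 bases in replicates 1, 2 and 3, and none was 0, so the read-based TPM of a short member still rests on a small divisor.

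**Figure D2:**
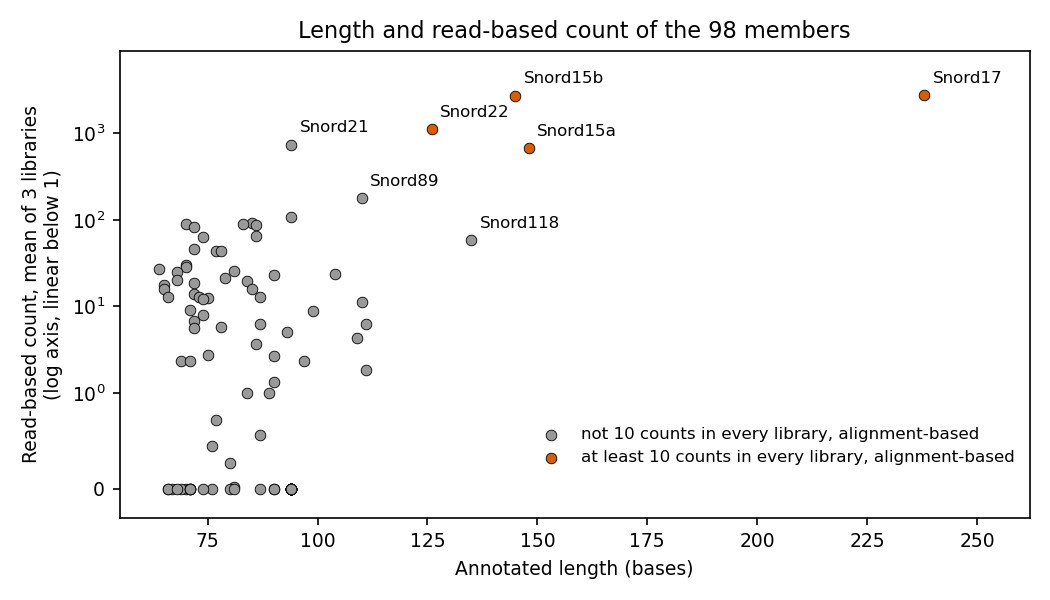
Mean read-based count over 3 libraries (vertical axis, logarithmic above 1) against annotated length (horizontal axis, bases) for the 98 members, with the 4 members that had at least 10 alignment-based counts in every library in orange. All 4 lie at 126 bases or more, whereas Snord21 at 94 bases has a mean of 733 read-based counts and no alignment-based count.

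Snord15b, which guides methylation of large subunit ribosomal RNA, was the most counted member in replicate 1. It lies in the gene of the ribosomal protein Rps3. Its expected counts were 4034, 1795 and 1498 in replicates 1, 2 and 3. These were 290 CPM (95% Wilson interval 281 to 299), 91.6 (87.5 to 95.9) and 77.4 (73.6 to 81.4), so replicate 1 stood apart from the others beyond counting error. The TPM values were 42840, 32213 and 28349, a narrower range, on effective lengths of 6.95, 3.09 and 3.18 bases. Read-based counts were 4349, 2078 and 1714, or 10159, 2696 and 2405 TPM.

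Snord17, the longest member, has the sorting nexin gene Snx5 as its host. It had 3474, 2357 and 1525 expected counts, which is 250 (242 to 258), 120 (115.5 to 125.2) and 78.8 (75.0 to 82.9) CPM. Replicate 1 was again the highest by counts, but in TPM the order changed, with 3463, 3748 and 2522. The effective length had been 74.1 bases in replicate 1 and 34.9 and 36.4 in the others. The read-based tables, with effective lengths of 85.3, 78.1 and 80.1 bases, gave 3694, 2789 and 1821 counts and 2481, 1214 and 882 TPM, so there replicate 1 was highest in both units.

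Snord15a is the sister of Snord15b in another intron of Rps3. Its expected counts of 662, 599 and 413 (47.6, 30.6 and 21.3 CPM) were below those of Snord15b, a gene of nearly the same length, in every library. The ratio of Snord15b to Snord15a was 6.09, 3.00 and 3.63 in expected counts, 7.11, 3.47 and 4.20 in TPM and 5.71, 2.77 and 3.46 in read-based counts. Snord15a lies outside every exon of a longer transcript on its strand. Snord15b lies inside the exon of the retained-intron transcript Rps3-204, whose own read-based counts were 294, 559 and 423.

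Snord22, which serves in processing the precursor of small subunit ribosomal RNA, is carried by the noncoding host Snhg1 and was not highest in replicate 1. Its expected counts were 330, 1231 and 715, or 23.7 (21.3 to 26.4), 62.8 (59.4 to 66.4) and 37.0 (34.3 to 39.8) CPM, lowest in replicate 1. Its TPM was 13084 in replicate 1 and 0 in replicates 2 and 3, where its effective length was 0 in spite of the counts. It was the 1 member with counts and a TPM of 0, as were 61 of all genes. Read-based counts were 527, 1734 and 1098, and read-based TPM was 1617, 3017 and 2014. The Snord15b to Snord22 ratio in expected counts was accordingly 12.2, 1.46 and 2.10.

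Snord21, from the gene of the ribosomal protein Rpl5, guides methylation of large subunit ribosomal RNA. At 94 bases it had 0 expected counts in all libraries. The read-based tables gave it 1198, 485 and 517 counts, or 57.7, 13.9 and 15.7 CPM, with replicate 1 standing apart as for Snord15b. It lies inside the exon of the retained-intron transcript Rpl5-204, which had 136, 244 and 157 read-based counts. In read-based TPM it stood at 4475, 1048 and 1165, below Snord15b in each library. The order of the read-based TPM means was Snord15b (5087 ± 4395, SD, n = 3), Snord21 (2229 ± 1946), Snord22 (2216 ± 722), Snord17 (1525 ± 844) and Snord15a (1095 ± 533). The libraries of each neighbouring pair in this order overlapped.

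**Figure D3:**
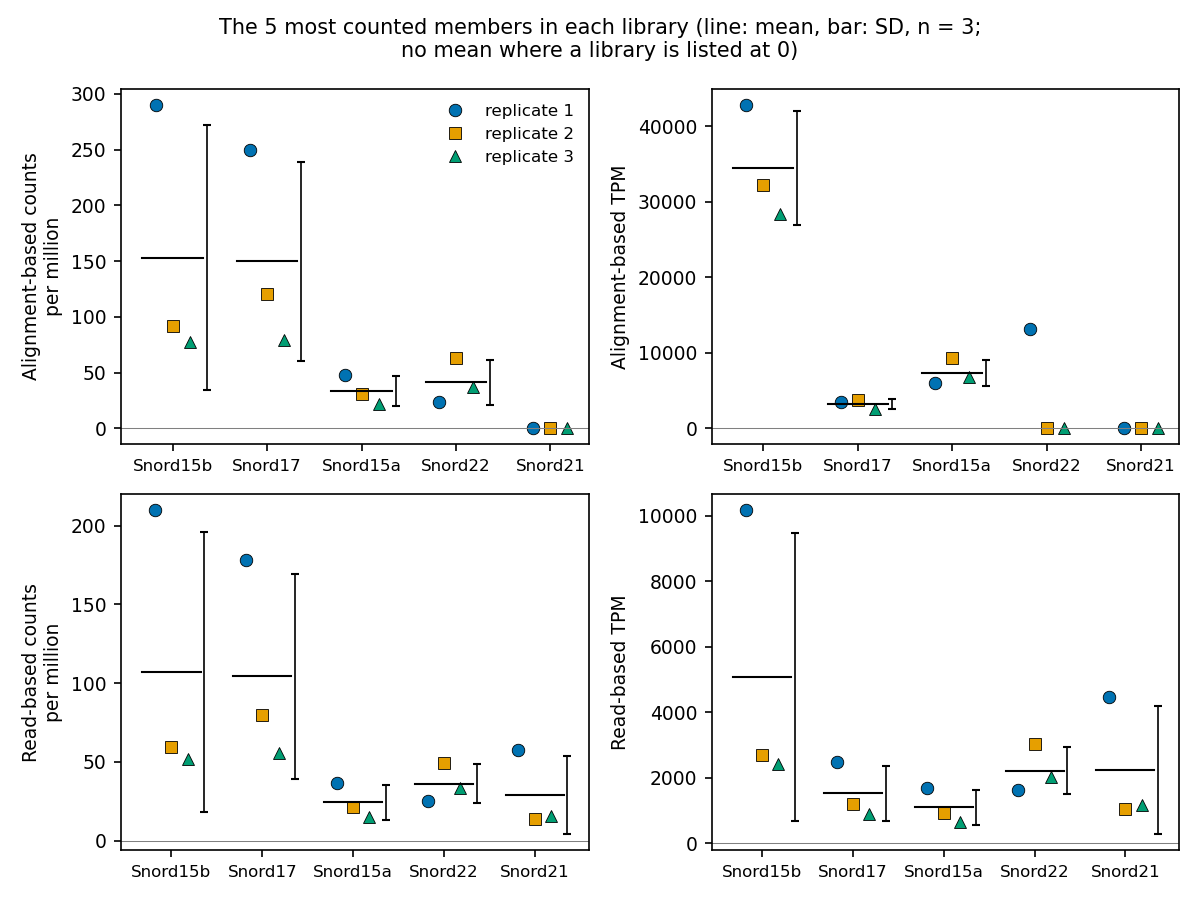
Values of the 5 members with the highest mean read-based count in each library, as CPM (left panels) and TPM (right panels), in the alignment-based tables (upper panels) and the read-based tables (lower panels). Lines are means and bars SD over 3 libraries, left out where a library is listed at 0. Snord15b reaches 290 alignment-based CPM in replicate 1 against 91.6 and 77.4, and in the alignment-based TPM panel Snord22 is above 0 in replicate 1 alone.

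These 5 members held most of the read-based counts of the class. They took 89.2%, 81.2% and 78.9% of the members' read-based counts in replicates 1, 2 and 3 (83.1% ± 5.38, SD, n = 3). The remaining members summed to 61.7, 51.9 and 45.8 CPM. Of the leading 5, all but Snord21 are also among the 5 longest members, at 126 to 238 bases against a median of 84. The part of length in their share was not tested. All members together held 0.0612%, 0.0305% and 0.0215% of expected counts (0.0377% ± 0.0208) and 0.0569%, 0.0276% and 0.0218% of read-based counts. In the length-corrected unit they held 6.55%, 4.53% and 3.77% of all TPM (4.95% ± 1.44) and 17.7% ± 3.53 of the TPM of all 1507 genes with a snoRNA transcript. With expected counts divided by annotated length in place of effective length, the share was 0.534%.

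The box H/ACA genes were the natural comparison within the same libraries. They were 121 to 205 bases long with a median of 132.5, so all were longer than 93 of the 98 members. Of 42, 7 were counted in the alignment-based and 20 in the read-based tables, against 23.4% and 37.8% of all genes. Summed expected counts of the C/D members were above those of the H/ACA genes in 3 of 3 libraries, with log2 ratios of 0.98, 0.04 and 0.59 (0.54 ± 0.47, SD, n = 3). Read-based counts gave 0.80 ± 0.38, and expected counts divided by annotated length gave 0.78. The exact two-sided sign-flip permutation test gave p = 0.25 for all 3 versions, the smallest that 3 libraries allow, so the design could not pass a threshold of 0.05.

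Members that act in ribosomal RNA processing were described as a list of 7 (Snord22, Snord118, Snord13 and 4 Snord14 genes). Of these, 5 were counted in the read-based tables, against 37.8% of all genes. Snord118, the U8 RNA needed for large subunit processing, is transcribed from its own gene and has no host. Its expected counts were 5, 0 and 2 and its read-based counts 82, 39 and 53. Snord13, likewise without a host, had 23, 31 and 17 read-based counts and 0 expected counts.

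The Snord14 (U14) genes pair with the precursor of small subunit RNA and also guide a methylation. Snord14c, at chr9:40803583-40803668, Snord14d, at chr9:40803995-40804080, and Snord14e, at chr9:40804748-40804837, lie in introns of the heat shock gene Hspa8 on the plus strand. Snord14a lies at chr7:116333171-116333257 on the minus strand in Rps13. They are shown together because their letters decide how reads can be shared among them.
Snord14c: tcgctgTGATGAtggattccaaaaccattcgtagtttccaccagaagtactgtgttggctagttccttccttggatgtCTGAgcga
Snord14d: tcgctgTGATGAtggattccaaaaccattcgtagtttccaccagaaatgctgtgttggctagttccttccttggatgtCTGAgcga
Snord14e: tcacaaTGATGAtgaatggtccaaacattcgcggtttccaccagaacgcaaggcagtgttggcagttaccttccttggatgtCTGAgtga
Snord14a: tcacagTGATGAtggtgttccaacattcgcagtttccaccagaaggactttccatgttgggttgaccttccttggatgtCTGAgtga
Snord14c and Snord14d are both 86 bases long and differ at 2 positions, G47A and A49G, counted from the 5′ end of Snord14c. Their read-based counts were 55.9, 71.2 and 65.9 for Snord14c and 70.3, 109 and 79.1 for Snord14d, with Snord14d higher in 3 of 3 libraries by 1.26, 1.54 and 1.20 times. Snord14e was estimated at under 1 count in replicates 1 and 3 and at 4.04 in replicate 2. Snord14a had 0 counts in every library. All 3 members in Hspa8 lie inside an exon of the retained-intron transcript Hspa8-208, which had 1766, 1792 and 1372 read-based counts, so the split between the snoRNAs and that transcript is uncertain.

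Such overlap with a longer transcript was recorded for every member. A member was placed in 1 of 3 groups, a grouping chosen after the data were seen: 37 lie wholly inside an exon of a longer transcript on the same strand, 44 do not, and 17 are copies of Snord116. Of the 37, none has a 31-base word of its own, that is, a stretch found in no other annotated transcript. Of these, 9 were counted, 15 had a read-based count of 0 in all libraries, and none of the 22 above 0 had whole counts. Of the 44 outside exons, 24 were counted and 2 were at 0, and 39 of the 42 above 0 had whole counts (within 0.0001). Both are to be read beside the 37.8% of all genes that were counted, and the difference between the groups was not tested. The median of the mean counts was 0.562 inside exons and 15.7 outside. Snord15b, Snord22 and Snord21, all inside exons, were nevertheless among the 4 members of highest mean read-based count. Whether the members inside exons have less RNA was not tested, since their reads can be given to the longer transcript.

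**Figure D4:**
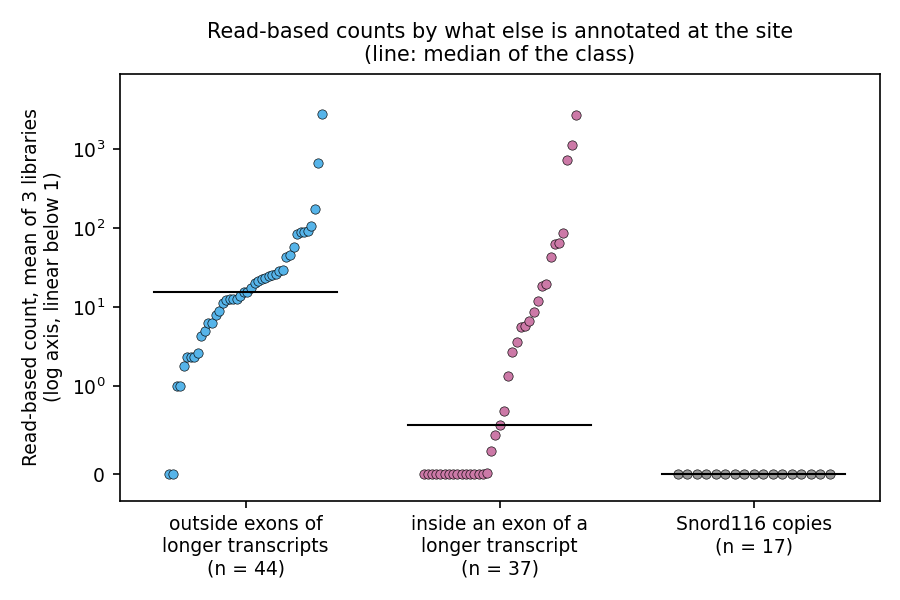
Mean read-based count over 3 libraries (vertical axis, logarithmic above 1) of each member, in 3 groups by the annotation at the site, ordered by value within a group, with the median of each group as a line. The 15 members at 0 inside exons and the 17 Snord116 copies lie on the bottom line, while 2 of the 44 members outside exons do.

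Several members at 0 lie in transcripts with many counts, and whether these hold reads of the snoRNA was not tested. Snord78, one of the snoRNAs of the noncoding host Gas5, had 0 read-based counts while the Gas5 transcripts that contain it had 1079, 1842 and 1053. Snord12, inside transcripts of the noncoding host Zfas1, was at 0 beside 1020, 1445 and 1103 counts. Snord95, in the Rack1 gene, was at 0 beside 402, 997 and 597. In the alignment-based tables the counts of Snord22 and its host Snhg1, each fractional, added up to whole numbers of 844, 1993 and 1363, and those of Snord15b and Rps3 to 4364, 2331 and 1908.

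Members free of this overlap and still at 0 were Snord4a and Snord123, both named after their values were seen, and both with only words of their own. Snord4a lies at chr11:78181686-78181756 on the minus strand in the ribosomal protein gene Rpl23a and holds both box motifs. It overlaps an exon on the opposite strand, and since use of strand is not stated the reads of both cannot be told apart.
Snord4a: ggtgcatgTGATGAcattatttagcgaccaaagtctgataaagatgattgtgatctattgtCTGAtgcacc
Its host stood at 5.45, 6.72 and 6.50 TPM, and its neighbour Snord42a in the same gene had 14.5, 18.1 and 20.3 read-based counts, but also overlaps an exon on the opposite strand. Snord123 belongs to Snhg18, whose TPM was 0 in every library. For both, a count of 0 allows up to 0.145, 0.0858 and 0.0913 CPM.

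The imprinted Snrpn to Ube3a region on chromosome 7, whose snoRNAs are known from neurons and from Prader-Willi syndrome, was at 0 throughout. All 19 members found there (17 copies of Snord116, Snord64 and Snord107) had 0 counts in each library and in both kinds of table. All 19 are shorter than 111 bases, so their 0 in the alignment-based tables cannot be read as absence. The annotated host of the Snord116 copies, Snhg14, stood at 3.84, 5.74 and 5.36 TPM, whereas no copy had a count. The 17 copies have 4 distinct sequences, and 14 are identical to Snord116l1, at chr7:59894620-59894713 on the minus strand.
Snord116l1: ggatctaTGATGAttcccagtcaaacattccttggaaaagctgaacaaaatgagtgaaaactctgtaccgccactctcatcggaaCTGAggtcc
Only 3 of the copies have any 31-base word of their own, and how reads with several equal matches were treated is not stated. Snord64 and Snord107 lie inside exons and have no such word, and the transcript that holds Snord64 had 4.33, 37.3 and 36.3 read-based counts. Of the list for the imprinted Dlk1 to Dio3 region, 0 members were present under the symbols used.

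Host genes were assigned by position on the same strand. Of 98 members, 95 lie inside another gene, with 56 members in protein-coding and 39 in noncoding hosts. These are 54 hosts when only the first listed gene is taken for a member that lies in several. Snord13, Snord118 and Snord104 have no host. Members and hosts stood in no fixed ratio. Rps3, host of Snord15b, stood at 10.2, 12.8 and 11.3 TPM, and Snord15b had 12.2, 3.35 and 3.66 times the expected counts of the whole Rps3 gene. Snord17 had 4.64, 1.26 and 1.29 times those of Snx5, which stood at 60.1, 106 and 60.1 TPM. Snord22 had 0.641, 1.61 and 1.10 times those of Snhg1, at 28.3, 34.3 and 33.5 TPM. Snord15b and Snord22 lie inside exons of retained-intron transcripts of their hosts, and neither has a word of its own. Their expected counts and those of their hosts were fractional with whole sums, so these ratios rest on a split of reads that was not tested. Snord17 lies outside such exons, and its counts and those of Snx5 were whole. Between libraries, the entry of Rps3 differed less than that of Snord15b. Rps3 had 23.7, 27.3 and 21.2 CPM, while those of Snord15b were 290, 91.6 and 77.4. Snx5 had 53.8, 95.8 and 61.1 CPM, highest in replicate 2, while Snord17 was highest in replicate 1.

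Across the 41 members with a host that were not inside an exon, Spearman's rho between the member's read-based CPM and the host's TPM was 0.45. It is a correlation across genes within the same libraries, and the members share 33 hosts. For the same 41 members the coefficient of read-based CPM against the member's own length was -0.0016. Snord15b, Snord118 and Snord22, at 145, 135 and 126 bases, are not among the 41, so few long members entered it.

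The members of a host did not share 1 level. Some snoRNAs of Rpl13a are known for their part in the response of mammalian cells to lipid overload. All 4 members in Rpl13a were counted in the read-based tables, against 37.8% of all genes. Snord32a led them with 65, 119 and 87 counts, followed by Snord34 with 14, 46 and 29, Snord35a with 15, 31 and 23, and Snord33 with 16.3, 15.5 and 26.7. Per length, as read-based TPM, Snord32a stood at 226 ± 21.5 (SD, n = 3), Snord34 at 72.1 ± 19.1, Snord35a at 57.4 ± 6.12 and Snord33 at 50.7 ± 16.7. The libraries of Snord32a lay above all those of the other 3 members, which overlapped each other. Snord33 is the member inside an exon of a longer Rpl13a transcript. The host stood at 18.1, 24.1 and 25.6 TPM.

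The other host families are to be read beside the 37.8% of all genes counted in the read-based tables. Gas5 had 1 of 4 members counted, Snord47 with 40.4, 50.2 and 40.1 read-based counts, although the host stood at 105, 151 and 105 TPM. Nop56, itself the gene of a core box C/D protein, had both counted: Snord110 with 23, 15 and 36 and Snord57 with 21.6, 19.7 and 15.2. Ncl, the nucleolin gene, carried Snord82 with 17, 30 and 39. Rpl23a had 1 of 3, and the Rpl7a list had 0 members under the symbols used.

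Of the members below the leading 5, Snord89, in the noncoding gene Gm15832, had 152, 200 and 179 read-based counts. Snord83b, in the ribosomal protein gene Rpl3, had 61, 159 and 102, and Snord71, in the adaptor gene Ap1g1, had 55, 134 and 86. Snord104 had 90, 85 and 97. Snord49b, in 2410006H16Rik, had 46, 120 and 85, and Snord99, in Snhg12, had 81.7, 50.4 and 59.0. Replicate 2 held the highest count of Snord83b, Snord71 and Snord49b, and replicate 1 that of Snord99, before scaling to depth. Of the 28 counted members below the leading 5, means ran from 177 (Snord89) to 14 (Snord65) with a median of 29.2. The members nearest the threshold of 10 in their lowest library were Snord98 (10), with Snord65 and Snord92 tied at 11, above it, and Snord87 (9) and Snord100 (8.58) below it.

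**Figure D5:**
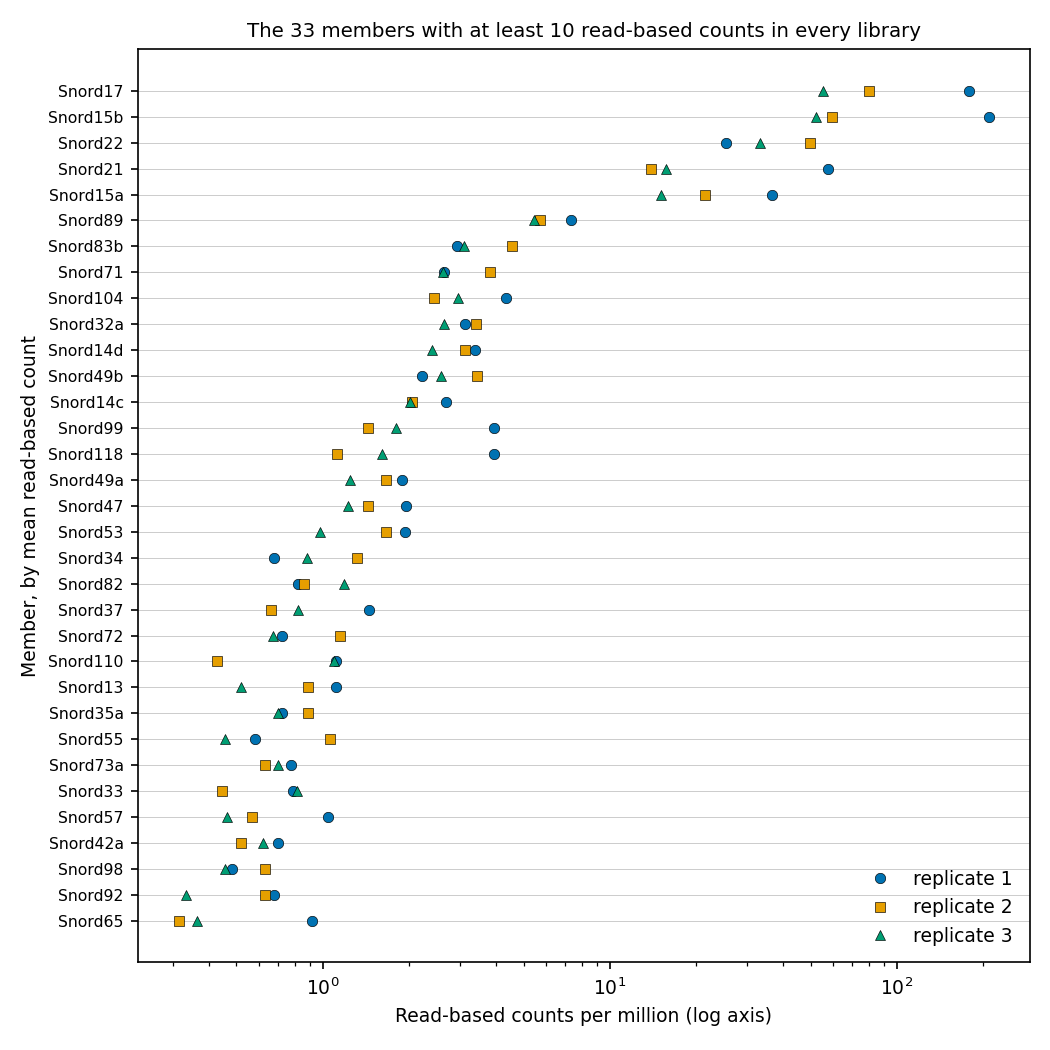
Read-based CPM (horizontal axis, logarithmic) of the 33 members with at least 10 read-based counts in every library, ordered by mean count, with 1 point per library. Replicate 1 is farthest right for 21 of the 33, a count that was not made over all genes. Snord15b, Snord17 and Snord21 show the widest gaps among the leading 5.

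The libraries differed in the balance of these RNAs. Over the 33 members, replicate 1 was the highest for 21, replicate 2 for 10 and replicate 3 for 2. The matching shares over all genes were not computed, so these counts describe the members alone. Replicate 1 was more than 2 times the mean of replicates 2 and 3 for 8 of the 33 (Snord21, Snord15b, Snord118, Snord65, Snord17, Snord99, Snord57 and Snord15a), against 4.9% of all genes counted in the read-based tables. It was above that mean for 23 of the 33, against 44.4% of all such genes. The ratio ran from 3.90 for Snord21 down to 0.613 for Snord22 and 0.614 for Snord34, with a median of 1.31. Replicate 1 is also the library with the largest starting amount, the lowest total and the longest alignment-based effective lengths for short genes, and their part in this difference was not tested.

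Counts of the 33 members gave a chi-square per degree of freedom of 59.5 between replicates 1 and 2, 40.3 between 1 and 3 and 4.95 between 2 and 3, so no pair agreed within counting noise. The median coefficient of variation over libraries was 30.7% for the 33 members, beside 25.0% for all counted genes, and without replicate 1 it was 20.0% beside 18.0%, a check added after the data were seen. In the alignment-based tables it was 54.0% for the 4 counted members, beside 24.7%, and without replicate 1 it was 27.3% beside 20.3%. The most even members were Snord73a (10.1%; 16, 22 and 23 counts), Snord32a (12.5%) and Snord35a (13.2%). The most uneven were Snord21 (85.2%), Snord15b (83.0%) and Snord118 (68.0%). Among the 4 members counted by both routes, read-based CPM were 0.698 (Snord17), 0.699 (Snord15b), 0.736 (Snord15a) and 0.878 (Snord22) times the alignment-based ones. Before scaling, the read-based counts of all 4 were the higher in every library, and so were the read-based totals.

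RNA of the genes for the box C/D particle's proteins was present in the same libraries. Fbl, the gene of the methyltransferase fibrillarin, stood at 6.25, 9.74 and 8.15 TPM (8.05 ± 1.75, SD, n = 3). The scaffold gene Nop56 stood at 20.3, 26.6 and 27.4, its partner Nop58 at 10.7, 14.1 and 16.7, and Snu13, whose protein binds the folded C and D boxes first, at 3.18, 4.23 and 3.26. All 4 had at least 1 TPM in every library, against 20.2% of all genes. In TPM and in read-based CPM all 4 were lowest in replicate 1, the library with the highest member share, but in alignment-based CPM Fbl and Snu13 were lowest in replicate 3 (5.60 and 2.95 against 6.43 and 3.45 in replicate 1). Of 8 assembly and trafficking factors, 4 had at least 1 TPM in every library: Nufip1, Pih1d1, Znhit6 and Nolc1. Pih1d1, of the R2TP chaperone complex, was the highest at 3.34, 9.44 and 7.25 TPM, and Rpap3, of the same complex, the lowest at 0.29, 0.70 and 0.30. In expected counts 6 of the 8 had at least 10 in every library, against 23.4% of all genes. In read-based counts 8 of 8 did, against 37.8%.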

How the data were processed

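Chromatin-fraction RNA of 1 group was measured in 3 libraries. The build was mm10 and the annotation GENCODE M21, per the file headers and the accompanying text; for the programs, the read length and the use of strand, no statement was found. The expected counts and TPM of the alignment-based gene tables, which have the layout of RSEM output, and the estimated counts and TPM of the read-based transcript tables, which have the layout of kallisto output, are used as the authors deposited them, with the deposited lengths and effective lengths. Read-based values were summed per gene. CPM values are counts divided by each table's total and multiplied by 1000000. Only genes in both tables were used, 55450 of 55536 in the alignment-based tables.

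Members and gene lists were chosen with earlier results of these data known. Lists held 4 core proteins, 8 assembly factors, 7 processing RNAs present, host families and markers. The rule named the 15 members of highest mean expected count, the 5 of highest mean TPM, the ends of each list, the members nearest the threshold and those with extreme coefficients of variation or table ratios. As only 5 members had an expected count, the rank by read-based count was added after the data were seen. Sequences of Snord21, Snord4a and Snord116l1 were also added then. Members were compared with 31-base words of all annotated transcripts. A member was whole-numbered within 0.0001. TMM factors came from edgeR 4.0.16 in R 4.3.3 on expected counts rounded to whole numbers; other steps used Python 3.11.15, pandas 2.3.3, numpy 2.4.6 and scipy 1.17.1. The coefficient of variation and the motif search were tested on simulated data. With 1 group no treatment effect could be tested. Some items are not reported here. Genes that overlap others or have near-identical copies are uncertain.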

Additional observations from a re-analysis of the deposited data

How the results depend on the processing

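Of 40 alternatives to 7 results, 31 kept the value within the limits set, 9 moved it and 0 reversed it. The 4 members counted became 33 with read-based counts, and 44 or 18 with read-based minimums of 3 or 30, both added after the data were seen; alignment-based minimums of 3 and 30 left 4. The TPM share of 4.95% became 1.61% with read-based TPM and 0.534% with counts over annotated length. The median coefficient of variation of 54.0% became 18.5% within the members' own sum and 30.7% with read-based counts. The 28 members counted in the read-based tables with under 1 expected count in every library became 13 with a minimum of 30. The cause of these moves was not tested, except that a higher minimum leaves fewer members.

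Leaving out each replicate gave 4 members counted each time, a share of expected counts from 0.0260% to 0.0459%, a TPM share from 4.15% to 5.54%, a C/D to H/ACA log2 ratio from 0.31 to 0.78, 1 member with counts but a TPM of 0, a coefficient of variation from 27.3% (without replicate 1) to 63.8%, and 30 members counted in the read-based tables with under 1 expected count in every library kept. No paired analysis was possible because there is 1 group. Members near 10 counts have the widest relative counting error, and all members up to 111 bases had an effective length and a count of 0 in the alignment-based tables.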
